A study of Mus musculus with 6 samples.

Results

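The genes described here are the 251 autosomal protein-coding genes of mouse liver CD8+ T cells whose symbol is Zfp, Zkscan or Zscan followed by a number and whose level averaged at least 5 CPM, that is, reads scaled to a common library total, over 6 libraries. They were drawn from 377 autosomal protein-coding genes with such a name among the 54532 genes counted, and the other 126 lay under that level. Of the 251, 234 are named Zfp, 8 Zkscan and 9 Zscan. Zfp36 and Zfp683 were left out by name. The genes were thus chosen by their name and by 1 measured value, the level over both groups, so the levels below are given as a description. Just inside the limit stood Zfp629 at 5.02 CPM and Zfp689 at 5.04 CPM, and just outside it Zfp948 at 4.88 CPM and Zfp808 at 4.87 CPM.

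CD8+ T cells, which kill virus-infected cells and tumour cells, were purified from the liver of mice, and their mRNA was sequenced in bulk. The labels give 3 control libraries the genotype Wild type, and 3 libraries carry the word CUMS both in the title and as the genotype. The labels do not spell out that abbreviation, and the series text speaks of chronic stress and injury of these cells. The sources used here give neither strain, age and sex of the mice nor the length of the stress or the way the cells were purified. No label ties a library to an animal, so the spread behind each p-value is that between libraries of a group and could be purely technical.

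Proteins of this family bind DNA, and some RNA, through C2H2 zinc fingers, short repeats in which 2 cysteines and 2 histidines hold a zinc ion. Many carry a KRAB domain near the amino end. KRAB domains recruit Trim28 (KAP1), which brings in the histone methyltransferase Setdb1 and heterochromatin proteins, and this is a main route by which mammalian cells silence retroelements. A SCAN domain lets these proteins pair with each other, and members with neither domain include splicing, ribosome and chromatin factors. KRAB zinc finger genes arose by repeated duplication and lie in clusters along the chromosomes.

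A profile search of proteins translated from GENCODE coding sequences placed 128 of the 251 genes in a class with a KRAB domain and no SCAN domain, 16 in a class with SCAN alone, 12 with both and 95 with neither. A match at an E value of 1e-05 was required in 1 translation per gene, so a divergent domain can be missed: Zkscan1, Zkscan3 and Zkscan7 had no KRAB match in spite of their names. At least 1 finger was found in 247 proteins, with a median of 10 fingers and a maximum of 36 in Zfp142. None was found in Zfp330, Zfp365, Zfp703 and Zfp839. The KRAB class had a median of 12 fingers and the class with neither domain a median of 7. The submitters' own annotation puts 223 of the genes in its zf-C2H2 family.

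The following stretches of coding DNA, from the GENCODE transcripts of GRCm38 (the same build as mm10), show 1 finger each of the genes that passed the test, Zkscan8 and Zfp827, and of Zfp189, which had the most negative fold change and did not pass. They are read 5′ to 3′ along the gene, the capitals mark the codons of the 2 cysteines and 2 histidines that bind zinc, and each runs over 63 bases from the first cysteine to the last histidine. The Zkscan8 finger lies in exon 6 of 6 at chr13:21520706-21520768 on the minus strand, that of Zfp827 in exon 3 of 15 at chr8:79070403-79070465 on the plus strand, and that of Zfp189 in exon 4 of 4 at chr4:49529292-49529354 on the plus strand.
Zkscan8: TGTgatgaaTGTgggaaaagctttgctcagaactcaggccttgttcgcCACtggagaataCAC
Zfp827: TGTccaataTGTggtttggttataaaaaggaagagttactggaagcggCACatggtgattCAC
Zfp189: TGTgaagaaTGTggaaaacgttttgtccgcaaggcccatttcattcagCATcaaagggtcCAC

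The promoters of 210 of the 251 genes were found in RefSeq's table for GRCm38.p6, as 300 bases around the annotated start. Those of the 2 genes that passed the test, Zkscan8 and Zfp827, and of Zfp945, which came next, are shown as examples of how different the starts of the family are. Capitals mark matches on either strand to the motifs CCGGAAG (bound by ETS factors), GGGCGG (the GC box bound by Sp1) or TATAAA (the TATA box), and the capital run of Zkscan8 that reads the same on both strands holds CCGGAAG once on each, the matches overlapping. The Zkscan8 window is chr13:21531065-21531364 on the minus strand, the Zfp827 window chr8:79028187-79028486 on the plus strand and the Zfp945 window chr17:22867085-22867384 on the minus strand.
Zkscan8: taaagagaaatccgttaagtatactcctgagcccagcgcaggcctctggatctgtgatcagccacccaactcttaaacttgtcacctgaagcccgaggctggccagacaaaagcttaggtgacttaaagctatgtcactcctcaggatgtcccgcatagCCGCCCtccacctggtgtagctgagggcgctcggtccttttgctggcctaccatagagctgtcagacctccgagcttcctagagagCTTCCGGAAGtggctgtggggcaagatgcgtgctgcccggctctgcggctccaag
Zfp827: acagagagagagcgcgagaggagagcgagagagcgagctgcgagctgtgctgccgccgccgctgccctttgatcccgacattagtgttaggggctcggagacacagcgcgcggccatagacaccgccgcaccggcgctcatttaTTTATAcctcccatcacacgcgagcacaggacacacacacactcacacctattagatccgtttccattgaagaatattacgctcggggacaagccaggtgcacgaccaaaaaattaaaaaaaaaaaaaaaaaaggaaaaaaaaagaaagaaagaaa
Zfp945: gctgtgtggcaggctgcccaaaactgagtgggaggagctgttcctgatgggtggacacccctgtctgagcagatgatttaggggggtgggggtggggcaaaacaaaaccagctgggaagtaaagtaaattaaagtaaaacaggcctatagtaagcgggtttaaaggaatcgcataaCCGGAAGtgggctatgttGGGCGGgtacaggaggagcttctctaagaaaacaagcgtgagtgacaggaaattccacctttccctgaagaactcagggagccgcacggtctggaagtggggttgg

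The comparison was with 16494 promoters of protein-coding genes found in the same way, the family among them. No level limit was set on those genes, whereas the 210 had passed the limit of 5 CPM, so the 2 sets also differ in expression. CCGGAAG stood in 49 of the 210 promoters, or 23.3%, and in 12.3% of all 16494. The GC box stood in 46.2% of the family's promoters and 48.2% of all. TATAAA was found in 5.71% of the family's promoters and 12.9% of all. The NRF1 motif was found in 3.33% against 1.37%, AAGATGGCG, bound by YY1, in 4.29% against 2.04%, and ACTACAA, part of the ZNF143 site, in 4.76% against 3.89%. None of the 210 held the heat shock element, which was found in 0.455% of all promoters. These shares are a description of letters in the windows.

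The libraries held 14902248 to 18023206 counts. CUMS libraries 2 and 3 had reads on 15012 and 14670 genes, against 17616 to 20292 in the other 4, and stood apart from them. Among the 126 family genes under the level limit, 60 had a read in CUMS library 2 and 51 in CUMS library 3, against 81 to 85 in each of the other 4. The markers of CD8 T cells summed to 2803 to 3088 CPM in control and 3497 to 3852 CPM in CUMS, with Cd8a at 798 ± 51.6 and 1178 ± 32.9 CPM (SD, n = 3 each), so the labelled cell type was present in every library. Reads of genes listed as markers of other cell types were present too. The 15 monocyte and neutrophil markers summed to 4524 to 6983 CPM in control and 3091 to 3381 CPM in CUMS, and 14 of the 15 had a negative fold change, 5 of them past the test. The 4 CD4 T cell markers summed to 342 to 396 CPM in control and 154 to 168 CPM in CUMS, and all 4 passed the test as lower. The 9 hepatocyte markers summed to 8.01 to 11.1 CPM in control and 11.4 to 21.7 CPM in CUMS. The 10 Kupffer cell and macrophage markers summed to 43.7 to 57.9 and 24.3 to 25.5 CPM, with Timd4 at 0 counts in every library. The 6 NK cell markers summed to 165 to 232 CPM in control and 133 to 140.1 CPM in CUMS. All 6 had a negative fold change and 0 passed the test. The largest were Tyrobp, at 107 CPM in control and 58.6 CPM in CUMS, and Eomes, at 64.2 and 62.2 CPM. Klrb1c stood at 19.1 CPM in control and 10.9 CPM in CUMS. Ncr1 had a log2 fold change of -0.06 at a mean of 2.61 CPM, and Klra8 and Klra4 averaged 0.758 and 0.789 CPM. The 7 B cell and plasma cell markers summed to 114.0 to 126 CPM in control and 104 to 133 CPM in CUMS. In bulk libraries, fewer cells of a type and less RNA per cell cannot be told apart.

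The 251 genes together took 0.881% to 0.954% of all counts in the control libraries and 0.916% to 0.951% in the CUMS libraries. After scaling by the TMM library factors, which all CPM values of single groups and libraries below carry, they summed to 9060, 8916 and 9626 CPM in control libraries 1, 2 and 3 and to 9406, 9238 and 8999 CPM in CUMS libraries 1, 2 and 3. The values of the groups overlapped. The means were 9201 ± 375 CPM in control and 9214 ± 205 CPM in CUMS (SD, n = 3 each), a log2 ratio of 0.002, well within the spread within groups of 0.047 on the same log2 scale.

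The family was expressed at low levels. The median gene averaged 20.8 CPM, with 53 genes under 10 CPM and 18 at 100 CPM or more. Per kilobase of gene length the median was 4.62 CPM, against 9.74 CPM per kilobase for the 8971 other autosomal protein-coding genes of at least 5 CPM. The KRAB class was the lowest, with a median of 3.72 CPM per kilobase, and the class with neither domain the highest, with 6.85 CPM per kilobase. Classes with SCAN lay between them, at 5.06 CPM per kilobase for SCAN alone and 5.31 for SCAN with KRAB.

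In CPM, the 6 most abundant genes all had neither domain. They were Zfp292 at 262.9 CPM, Zfp652 at 235.2, Zfp638 at 200.9, Zfp740 at 186.4, Zfp106 at 181.1 and Zfp207 at 180.6. Zfp207 (BuGZ) is a microtubule and kinetochore protein that stabilises Bub3, and Zfp106 and Zfp638 bind RNA or act with the silencing machinery. Their log2 fold changes, CUMS over control, ran from -0.23 ± 0.13 (SE) for Zfp638 to 0.07 ± 0.12 for Zfp292, and none passed the test.

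Per kilobase the order was another. Zfp869, a KRAB gene, stood first at 36.8 ± 3.49 CPM per kilobase (SD over 6 libraries, range 32.6 to 42.8), and Zfp740 stood next at 36.6 ± 3.17 (32.5 to 42.02). The ranges of those 2 genes overlapped nearly whole. After them came Zfp217, a partner of the Kdm1a corepressor complex, at 29.4 ± 2.78 CPM per kilobase and Zfp207 at 27.1 ± 1.49. Zfp292, Zfp598, Zfp592, Zfp281, Zfp445 and Zfp871 followed at 26.3 down to 22.6 CPM per kilobase, each within the range of its neighbours.

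**Figure D1:**
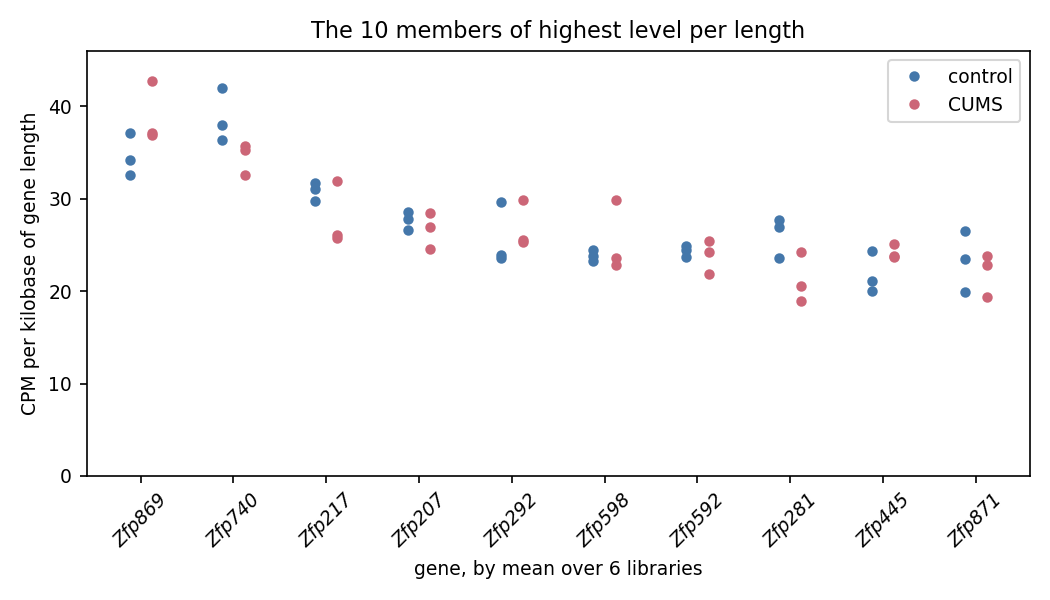
CPM per kilobase of gene length (y axis) in each library for the 10 family genes of highest mean on that scale (x axis, in order of the mean), with control libraries in blue and CUMS libraries in red. Zfp869 and Zfp740 lie above 32 CPM per kilobase in every library, and the other 8 genes lie close together between 18.96 and 31.9.

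CUMS was compared with control to see which of these genes differed between the groups. Of the 251 genes, 2 were higher in CUMS and 0 lower at an adjusted p of 0.05 by edgeR's quasi-likelihood test, with Benjamini-Hochberg adjustment over all 14054 genes tested. The genes that rose were Zkscan8 and Zfp827. The 2 genes are 0.797% of the family. Over all genes tested 1.31% passed, 0.363% as higher and 0.946% as lower, and among autosomal protein-coding genes of at least 5 CPM 1.84% passed, 0.466% as higher and 1.38% as lower. DESeq2 called 4 of the 251 (1.59%; 3 higher and 1 lower) against 4.73% of all genes, and limma voom 3 (1.2%), all higher, against 3.54%. At an unadjusted p under 0.05 in edgeR stood 28 family genes, 20 higher and 8 lower, or 11.2%, against 15.3% of all genes tested and 19.4% of autosomal protein-coding genes of at least 5 CPM.

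For 43 of the 251 genes, or 17.1%, all values of 1 group lay above all of the other, against 22.7% of all genes tested and 25.5% of autosomal protein-coding genes of at least 5 CPM. They lay higher in CUMS for 27 genes (10.8%, and 10.8% of all genes) and lower for 16 (6.37%, against 12% of all genes). All 251 genes passed the filter on low counts, as did 54 of the 126 below the level limit. Of those 54, 0 passed the test in edgeR, DESeq2 or limma voom, against 1.31%, 4.73% and 3.54% of all genes. An unadjusted p under 0.05 in edgeR was seen for 2 of them, against 15.3% of all genes. These shares describe the family and were not tested against the other genes.

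Zkscan8 encodes a protein of 588 residues with both a SCAN and a KRAB domain and 9 fingers, and lies on the minus strand of chromosome 13 from 21513222 to 21531120 (mm10, ENSMUSG00000063894). It had 25.1, 26.0 and 31.9 CPM in control libraries 1, 2 and 3 and 57.2, 73.1 and 49.8 CPM in CUMS libraries 1, 2 and 3. Every CUMS library stood above every control library, and the spread was wider in CUMS. The means were 27.7 ± 3.69 and 60.1 ± 11.9 CPM (SD, n = 3 each), a 2.17-fold difference (log2 fold change 1.12 ± 0.18 SE, edgeR adjusted p = 0.0180). No gene overlaps it and no stretch of its transcript of 100 bases or more was shared with another gene.

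Zfp827 has neither domain and 9 fingers, and lies on the plus strand of chromosome 8 from 79028437 to 79193766 (mm10, ENSMUSG00000071064). Its human counterpart recruits the NuRD chromatin complex to telomeres. It had 23.3, 21.4 and 23.6 CPM in control libraries 1, 2 and 3 and 37.6, 43.0 and 41.1 CPM in CUMS libraries 1, 2 and 3. The control libraries lay close together, and so did the CUMS libraries above them. The means were 22.8 ± 1.19 and 40.5 ± 2.73 CPM (SD, n = 3 each), a 1.78-fold difference (log2 fold change 0.83 ± 0.15 SE, edgeR adjusted p = 0.0276). Gm45728 overlaps it on the same strand, so its counts are uncertain to that extent.

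With 1 library left out at a time the fold changes of both genes stayed near their full values, and the calls held in some of the fits. Over all genes fewer passed in each of these fits than the 184 of the main fit. The numbers were 62, 19 and 46 without control libraries 1, 2 and 3, and 92, 9 and 178 without CUMS libraries 1, 2 and 3. Zkscan8 passed in 2 of the 6 fits that left out 1 library, those without control library 3 or CUMS library 3 (edgeR adjusted p = 0.0467 and 0.0130). Its adjusted p was 0.0643 without control library 1, 0.106 without control library 2, 0.0511 without CUMS library 1 and 0.0682 without CUMS library 2, with log2 fold changes from 0.95 to 1.23 over all 6 fits. Zfp827 passed in 1 of the 6, without CUMS library 3 (0.0407). The adjusted p was 0.110, 0.186 and 0.0805 without control libraries 1, 2 and 3, and 0.0530 and 0.0881 without CUMS libraries 1 and 2, with log2 fold changes from 0.78 to 0.88. Without CUMS libraries 2 and 3 together the log2 fold changes were 1.04 and 0.72 and neither passed (edgeR adjusted p = 0.145 and 0.200). With the level of the monocyte and neutrophil markers added as a covariate they were 0.74 and 0.61 and again neither passed, nor did any other gene. That marker level separates the groups, as a mean of log2 CPM at 7.13 to 7.67 in control and 6.46 to 6.60 in CUMS, so that its part and that of the group cannot be told apart.

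Zfp945, a KRAB gene with 18 fingers in the chromosome 17 cluster, had the smallest p after those 2. It had 31.5, 33.4 and 45.7 CPM in control libraries 1, 2 and 3 and 57.1, 55.1 and 61.0 CPM in CUMS libraries 1, 2 and 3. The groups did not overlap, with control library 3 nearest to the CUMS values. The log2 fold change was 0.65 ± 0.16 (SE, edgeR adjusted p = 0.0822). The gene passed under DESeq2 (adjusted p = 0.0146) and limma voom (adjusted p = 0.00931), and in edgeR with no filter, with a stricter filter or after the trend with transcript GC content had been taken out of each library (adjusted p = 0.00706, 0.0479 and 0.0363). It passed in 0 of the 6 edgeR fits that left out 1 library (adjusted p = 0.0686 to 0.370), in which 0.061% to 1.2% of all genes passed. With the level of the monocyte and neutrophil markers as a covariate its log2 fold change was 0.36, and it did not pass.

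Zfp276, with neither domain, had 39.8, 41.8 and 41.6 CPM in control libraries 1, 2 and 3 and 32.9, 24.3 and 25.8 CPM in CUMS libraries 1, 2 and 3. All CUMS values were below the control values, which lay close together. The log2 fold change was -0.57 ± 0.16 (SE, edgeR adjusted p = 0.122), and DESeq2 called it (adjusted p = 0.0447). It overlaps Vps9d1 and Fanca, so its reads are uncertain.

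Zfp608, a regulator reported to hold down the recombinase genes in mouse thymocytes, had 16.5, 26.9 and 19.2 CPM in control libraries 1, 2 and 3 and 11.4, 11.4 and 14.4 CPM in CUMS libraries 1, 2 and 3. The groups did not overlap, and control library 2 stood well above the other 5. The log2 fold change was -0.75 ± 0.23 (SE, edgeR adjusted p = 0.152).

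Zfp189, a KRAB gene with 16 fingers known from work on stress resilience in the mouse prefrontal cortex, had the most negative fold change of the 251 and did not pass the test. It had 8.99, 8.93 and 5.26 CPM in control libraries 1, 2 and 3 and 6.11, 1.41 and 1.32 CPM in CUMS libraries 1, 2 and 3. CUMS library 1 lay within the control values, and CUMS libraries 2 and 3, with 23 and 20 counts, lay far below all others. The log2 fold change was -1.38 ± 0.57 (SE, edgeR adjusted p = 0.278), and it ran from -2.50 to -1.03 as single libraries were left out.

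**Figure D2:**
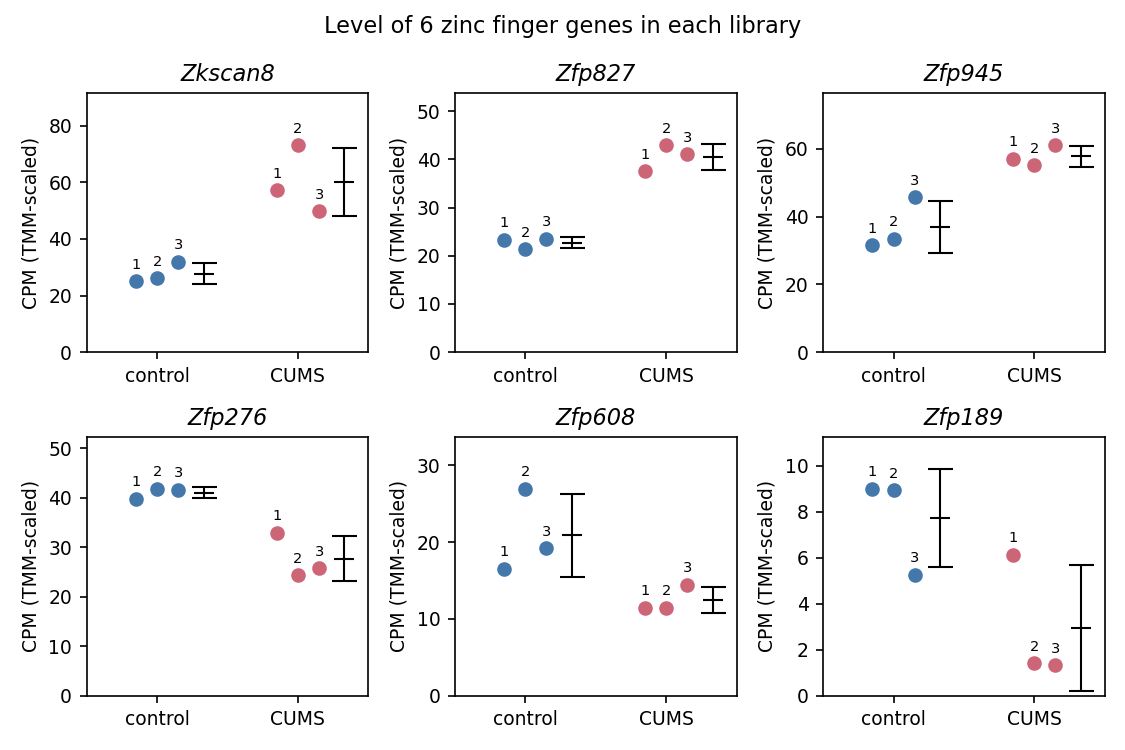
TMM-scaled CPM (y axis) of 6 family genes in each library (points, numbered by replicate) of control (blue) and CUMS (red), with the mean and SD of 3 libraries as bars beside the points. Zkscan8 and Zfp827 passed the test as higher in CUMS, the groups of Zfp945, Zfp276 and Zfp608 do not overlap but missed the threshold, and Zfp189 is low in CUMS libraries 2 and 3 only.

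The other genes with extreme fold changes were of low level. Zfp563, a KRAB gene, had 3.56, 4.10 and 3.20 CPM in control and 6.11, 7.62 and 7.91 CPM in CUMS libraries 1, 2 and 3, and Zfp202, with SCAN and KRAB, had 4.75, 2.86 and 4.98 CPM in control and 7.74, 9.34 and 7.65 CPM in CUMS. The groups did not overlap for either, and their log2 fold changes were 0.99 ± 0.34 and 0.97 ± 0.34 (SE, edgeR adjusted p = 0.197 and 0.200). Zfp661 and Zfp974 had log2 fold changes of 0.83 ± 0.33 and 0.82 ± 0.32. On the negative side, Zfp839 had -0.71 ± 0.53, Zfp324 -0.57 ± 0.34 and Zfp54 -0.56 ± 0.34, with adjusted p of 0.592, 0.478 and 0.492 in edgeR.

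The family as a whole was centred at no difference. The median log2 fold change of the 251 genes was -0.005, with 125 positive and 126 negative values. It was -0.005 over all genes tested and -0.010 over the 8971 other autosomal protein-coding genes of at least 5 CPM. Those other genes had a higher median level, 43.4 CPM against 20.8 CPM in the family. The quartiles of the family were -0.17 and 0.21, and 233 of 251 genes, or 92.8%, lay within 1.5-fold, against 89.6% of the other genes. Fold changes past 1.5 were seen for 18 genes (7.17%), against 22.4% of all genes tested and 10.3% of autosomal protein-coding genes of at least 5 CPM.

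The width of that spread followed the level. The SD of the log2 fold changes was 0.470 for the 53 genes of 5 to 10 CPM, 0.324 for the 64 genes of 10 to 20 CPM, 0.275 for the 82 genes of 20 to 50 CPM and 0.196 for the 52 genes of 50 CPM or more. In the same ranges the other autosomal protein-coding genes had SDs of 0.568, 0.457, 0.337 and 0.259, larger in each. Both genes that rose lie in the range of 20 to 50 CPM. Across the 251 genes the log2 fold change had a Pearson correlation of -0.052 with the number of fingers, 0.033 with transcript GC content, 0.036 with the log2 transcript length and -0.085 with the log2 level, given as descriptions over genes that share the same 6 libraries.

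**Figure D3:**
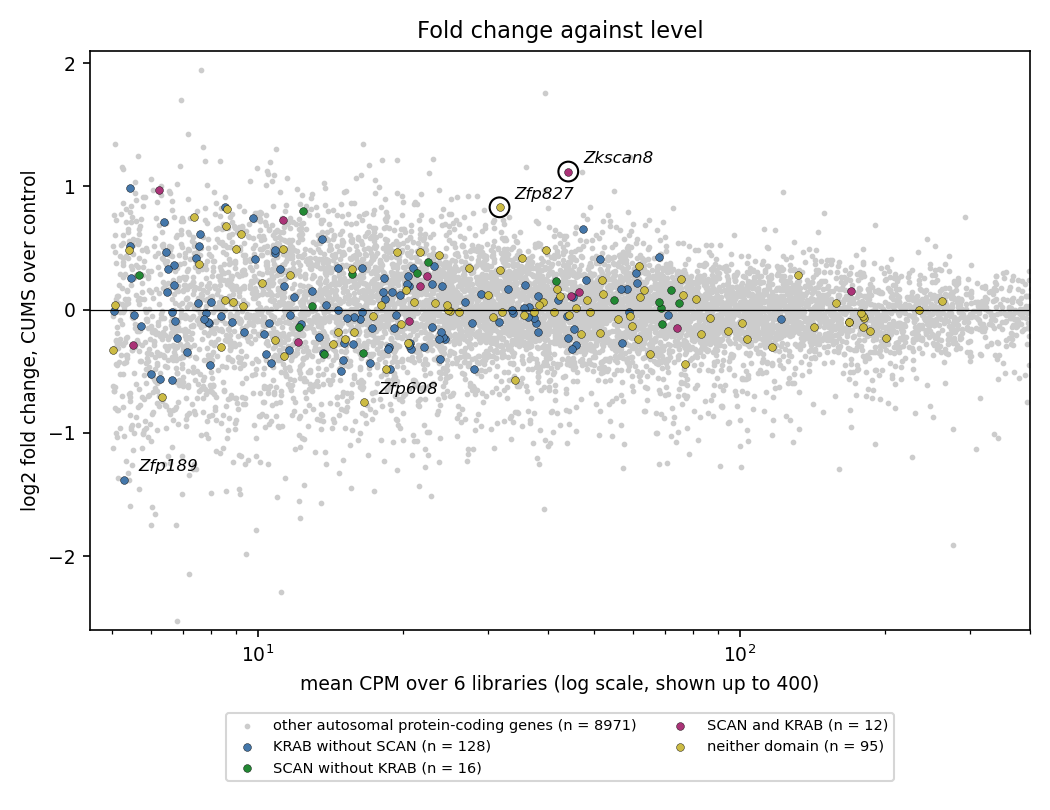
Log2 fold change of CUMS over control (y axis) against mean CPM over 6 libraries (x axis, log scale, shown up to 400 CPM) for the 251 family genes, coloured by domain class, and 8971 other autosomal protein-coding genes in grey, of which those above 400 CPM are not drawn. Zkscan8 and Zfp827, circled, passed the test, and the spread narrows as the level rises.

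The domain classes were described by their medians and signs, with no test of a difference between them. For the 12 genes with SCAN and KRAB the median log2 fold change was 0.145 with 8 positive, and the 16 with SCAN alone had 0.069 with 12 positive. Together 20 of the 28 were positive, or 71.4%, against 49.3% of all genes tested, and the median was 0.122. The median deviation of the 28 genes from each gene's mean over the libraries, in log2 CPM, was -0.082, -0.086 and 0.023 in control libraries 1, 2 and 3 and 0.107, -0.029 and 0.154 in CUMS libraries 1, 2 and 3, so the groups overlapped. The 128 genes with KRAB alone had a median of -0.036 with 57 positive and 71 negative, and the 95 with neither domain had 0.003 with 48 positive. Beside Zkscan8, the SCAN genes with the largest values were Zfp202, Zkscan7 (0.80 ± 0.25 SE, edgeR adjusted p = 0.149) and Zfp446 (0.73 ± 0.26, edgeR adjusted p = 0.208). Zkscan7 and Zfp446 were picked after their values were seen.

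Zkscan7 had 8.88, 9.37 and 8.86 CPM in control libraries 1, 2 and 3 and 16.5, 11.5 and 19.2 CPM in CUMS libraries 1, 2 and 3. The control libraries were nearly equal and each CUMS library was higher. The more abundant SCAN genes had smaller fold changes. Zfp445, Zkscan3, Zfp110, Zfp263, Zfp397, Zscan29 and Zscan26 all averaged over 66 CPM in both groups and had log2 fold changes from -0.15 to 0.16. The median of the SCAN class was 0.066 to 0.178 as single libraries were left out and 0.151 without CUMS libraries 2 and 3. It was -0.055 once the level of the monocyte and neutrophil markers was added as a covariate.

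The libraries of a group were not alike in the KRAB class. The median deviation of its 128 genes from each gene's own mean over the libraries, in log2 CPM, was 0.008, -0.086 and 0.156 in control libraries 1, 2 and 3 and 0.162, -0.010 and -0.109 in CUMS libraries 1, 2 and 3. The class was high in control library 3 and CUMS library 1 and low in control library 2 and CUMS library 3, so the groups overlapped. Control library 3 held the highest value for 45 of the 128 genes, or 35.2%, and CUMS library 3 the lowest for 50, or 39.1%. For the 8971 other genes those shares were 18% and 24.6%. The 95 genes with neither domain had medians of 0.002 to 0.045 in the 6 libraries.

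The KRAB genes are poor in G and C, with a median transcript GC content of 41.3% against 51.2% in the class with neither domain. The 909 other genes of transcript GC content under 42% had median deviations of 0.000, -0.027 and 0.175 in control libraries 1, 2 and 3 and 0.072, -0.042 and -0.172 in CUMS libraries 1, 2 and 3. They were high in control library 3 and low in CUMS library 3, as the KRAB genes were. The part of base composition in the pattern of the KRAB genes was not tested. After the trend with GC content had been taken out of each library, the KRAB class had a median log2 fold change of 0.006 in place of -0.036, a shift within the SD of 0.130 between libraries of a group. Without CUMS libraries 2 and 3 the same median was 0.154. It was -0.239 with the level of the monocyte and neutrophil markers as a covariate and 0.105 with that of the hepatocyte markers.

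**Figure D4:**
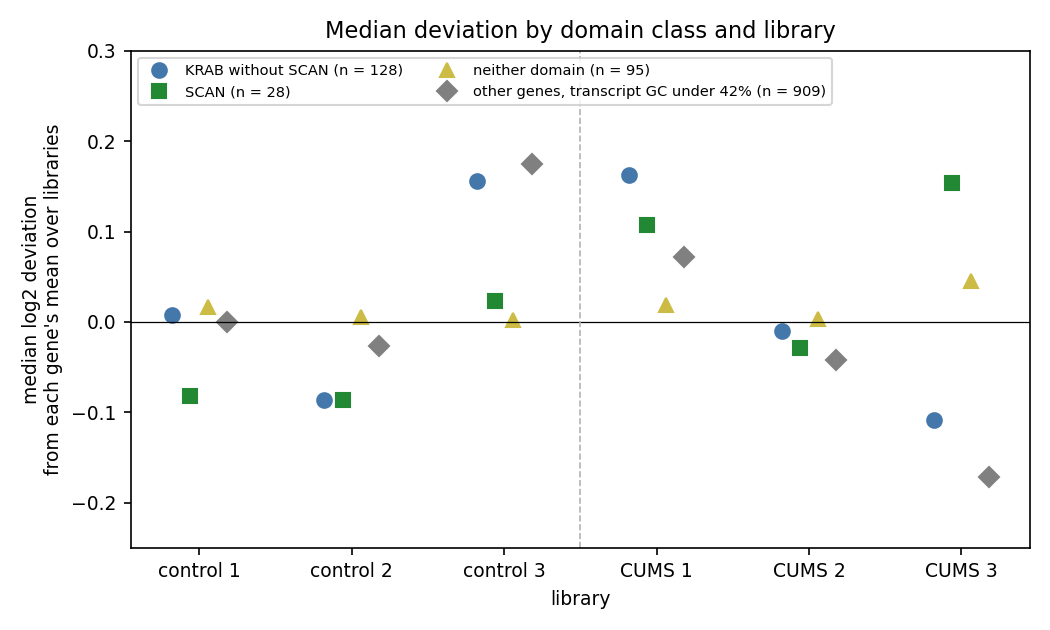
Median deviation of log2 CPM from each gene's mean over the libraries (y axis) in each of the 6 libraries (x axis) for the KRAB, SCAN and neither-domain classes and for 909 other genes with transcript GC content under 42%. The KRAB genes and the low-GC genes are high in control library 3 and low in CUMS library 3, and the genes with neither domain stay between 0.002 and 0.045.

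Along the genome, 163 of the 251 genes lay in 36 clusters, taken as runs in which the next family gene is within 500 kb, and 88 lay alone. Chromosome 7 held 62 of the genes, chromosome 17 held 32 and chromosome 13 held 25. The median log2 fold change was -0.015 for the clustered genes and 0.008 for those alone. Of the genes that rose, Zkscan8 lies in a cluster of 4 and Zfp827 alone.

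The largest cluster, 18 genes on chromosome 17 from 21008903 to 23564238 (mm10), holds 17 genes of the KRAB class. Their log2 fold changes ran from -0.56 for Zfp54 to 0.65 for Zfp945, with a median of -0.031, 8 positive and 10 negative. Zfp53, the most abundant, had 61.2, 58.5 and 68.0 CPM in control and 55.2, 44.4 and 56.1 CPM in CUMS libraries 1, 2 and 3. Its groups did not overlap by a small margin, with a log2 fold change of -0.27 ± 0.14 (SE, edgeR adjusted p = 0.405).

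The chromosome 13 cluster, 14 genes from 67038596 to 67827002, all of the KRAB class, had 4 positive and 10 negative values and a median of -0.208. The genes were Zfp712, Zfp455, Zfp595, Zfp953, Zfp456, Zfp429, Zfp58, Zfp87, Zfp748, Zfp738, Zfp65, Zfp85, Zfp493 and Zfp273, and none passed the test. Zfp748 had 20.5, 25.2 and 36.0 CPM in control and 25.1, 20.8 and 15.9 CPM in CUMS libraries 1, 2 and 3, and Zfp429 had 19.3, 17.4 and 29.6 CPM in control and 22.1, 16.1 and 9.16 CPM in CUMS. In both, control library 3 was the highest and CUMS library 3 the lowest, and the groups overlapped. The median deviation of the 14 genes was 0.373 in control library 3 and -0.488 in CUMS library 3, against -0.027 to 0.188 in the other 4, and their median transcript GC content was 39.1%. Summed over the cluster, the level was 209, 215 and 281 CPM in control libraries 1, 2 and 3 and 249, 231 and 155 CPM in CUMS libraries 1, 2 and 3, so the groups overlapped.

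The cluster on chromosome 7, 12 genes from 29768552 to 30169750, had a median of -0.079 with 4 positive and 8 negative. Its values ran from -0.38 ± 0.32 (SE) for Zfp420 to 0.71 ± 0.34 for Zfp27. It holds Zfp260 and Zfp146, genes with neither domain and levels of 101.4 and 62.1 CPM, whose log2 fold changes were -0.11 ± 0.14 and 0.10 ± 0.12. The summed level of the 12 genes was 307.5 to 339.4 CPM in control and 287.0 to 331.6 CPM in CUMS.

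**Figure D5:**
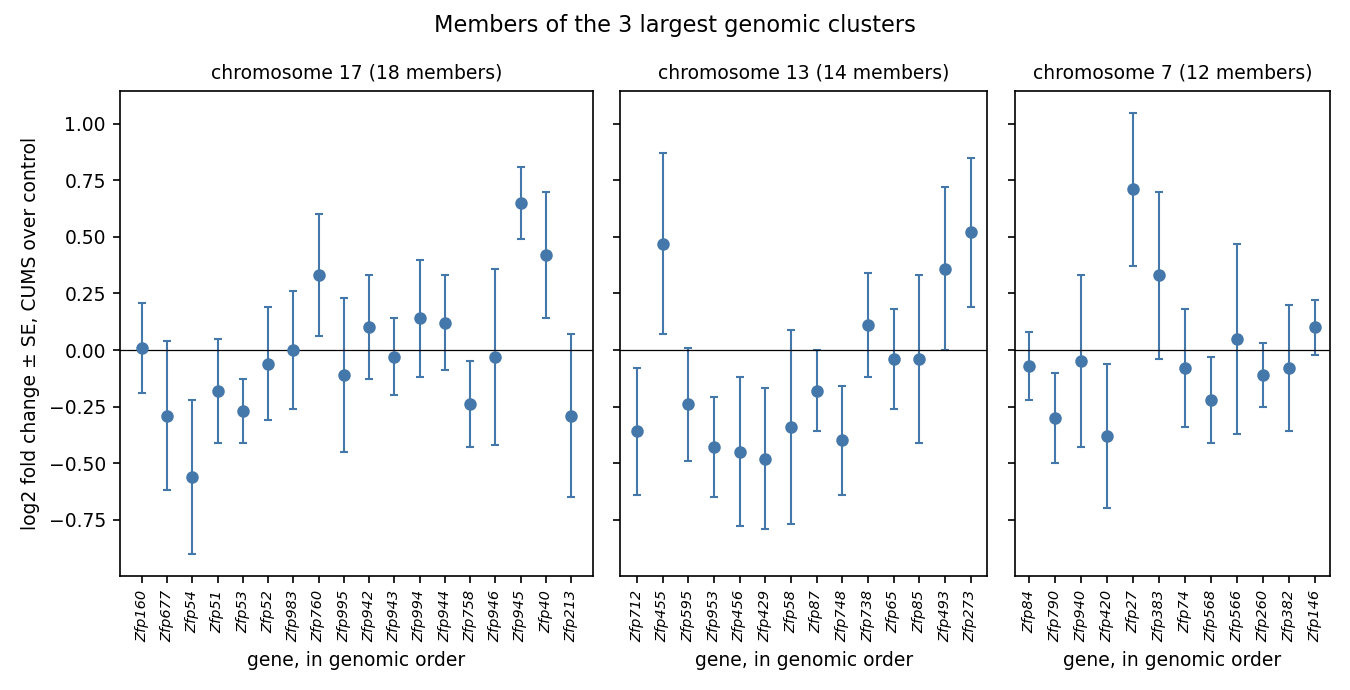
Log2 fold change of CUMS over control with its SE (y axis) for the members of the 3 largest genomic clusters, in order along chromosomes 17, 13 and 7 (x axis). In the chromosome 13 cluster 10 of 14 values are below 0, and no gene of the 3 clusters passed the test.

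The 4 tested members with known targets among imprinted genes and retroelements had log2 fold changes from -0.22 to 0.15. Zfp445, which guards imprinted loci together with Zfp57, had 156.3, 148.0 and 180.3 CPM in control libraries 1, 2 and 3 and 175.8, 186.1 and 176.4 CPM in CUMS libraries 1, 2 and 3. The groups overlapped, with control library 3 inside the CUMS range, and the log2 fold change was 0.15 ± 0.11 (SE, edgeR adjusted p = 0.588). Zfp809, which binds the primer binding site of murine leukaemia viruses, had -0.11 ± 0.15, Zfp568, a repressor of the placental promoter of Igf2, -0.22 ± 0.19, and Zfp932, a repressor of endogenous retroviruses, 0.09 ± 0.24. Zfp932 shares 22.0% of its transcript in stretches of 100 bases with Gm15446, so its counts are uncertain. None of the 4 passed the test in edgeR, DESeq2 or limma voom, against 1.31%, 4.73% and 3.54% of all genes. None had an unadjusted p under 0.05 in edgeR, against 15.3% of all genes, and Zfp57 was too low to be tested.

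Of the 9 members that act on RNA, ribosomes or the spindle, 0 passed the test in edgeR, DESeq2 or limma voom. Of all genes tested, 1.31%, 4.73% and 3.54% passed. In edgeR 0 of the 9 had an unadjusted p under 0.05, against 15.3% of all genes. Their log2 fold changes ran from -0.24 to 0.09. Zfp598, the ubiquitin ligase that marks collided ribosomes, had 80.5, 76.4 and 78.2 CPM in control and 75.1, 77.6 and 98.1 CPM in CUMS libraries 1, 2 and 3. Its groups overlapped, CUMS library 3 alone standing higher, and its log2 fold change was 0.09 ± 0.13 (SE). Zfp706 and Zfp638 had -0.24 ± 0.13 and -0.23 ± 0.13. Zfp622, a factor in maturation of the large ribosomal subunit, had -0.07 ± 0.17, Zfp346, which binds double-stranded RNA, -0.02 ± 0.16, Zfp326 0.05 ± 0.17 and Zfp830 0.06 ± 0.23.

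Among 20 members listed as large chromatin and transcription regulators, 1, Zfp827, passed the test in edgeR, against 1.31% of all genes tested. An unadjusted p under 0.05 was seen for 2 as higher and 1 as lower, against 15.3% of all genes. The median of the 20 was -0.037, with 8 positive and 12 negative. Zfp318, known for the splicing choice between immunoglobulin M and D in B cells, had 56.5, 50.01 and 56.3 CPM in control and 60.7, 84.1 and 62.0 CPM in CUMS libraries 1, 2 and 3. Its groups did not overlap, CUMS library 2 stood apart, and the log2 fold change was 0.35 ± 0.15 (SE, edgeR adjusted p = 0.309). Zfp281, a partner of the NuRD complex, had 116.5, 133.1 and 136.8 CPM in control and 119.6, 93.6 and 101.4 CPM in CUMS. Its CUMS library 1 lay within the control values, and its log2 fold change was -0.30 ± 0.13 (SE, edgeR adjusted p = 0.292).

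Zfp335, which developing and naive T cells require in mice, had 55.2, 66.8 and 57.0 CPM in control and 57.6, 70.5 and 72.4 CPM in CUMS libraries 1, 2 and 3. The groups overlapped, and the log2 fold change was 0.16 ± 0.14 (SE, edgeR adjusted p = 0.652). Zfp91, a ubiquitin ligase of the alternative NF-κB pathway, had -0.10 ± 0.11, Zfp148 -0.14 ± 0.13 and Zfp217 -0.14 ± 0.12. Zfp410, an activator of the gene for the NuRD helicase Chd4, had -0.02 ± 0.15, and Chd4 itself, which is not of the family, had -0.08 ± 0.10. Zfp143, a promoter-binding activator, had -0.04 ± 0.16, Zfp131 -0.05 ± 0.13 and Zfp263 0.16 ± 0.13. Zfp592 and Zfp687, which form a complex with each other, had -0.03 ± 0.11 and 0.17 ± 0.17. The other 8 members of the list, Zfp292, Zfp384, Zfp644, Zfp800, Zfp710, Zfp609, Zfp219 and Zfp827, ran from -0.28 for Zfp219 to 0.83 for Zfp827.

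The silencing machinery that KRAB proteins recruit was measured as 30 genes, of which 0 passed the test in either direction in edgeR, against 1.31% of all genes. Its median log2 fold change was 0.003, with 15 positive and 15 negative. Trim28, the corepressor bound by KRAB domains, had 267.9 ± 14.9 CPM in control and 270.6 ± 29.9 CPM in CUMS (SD, n = 3 each), a log2 fold change of 0.01 ± 0.11 (SE). Setdb1 had 71.0 ± 2.21 and 73.8 ± 6.47 CPM (0.06 ± 0.12), and its partner Atf7ip 389.2 ± 24.6 and 383.0 ± 41.4 CPM (-0.02 ± 0.11). At an unadjusted p under 0.05 stood 1 of the 30 as higher and 2 as lower, against 15.3% of all genes in either direction. DESeq2 and limma voom called 0, against 4.73% and 3.54% of all genes. A gene that missed the threshold is not shown to be equal in the groups.

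Zinc finger transcription factors outside the family, with BTB domains or of the Klf, Sp, Ikaros, Egr and other kinds, served as a comparison. Of 62 tested, 1 passed the test as lower and 0 as higher in edgeR, against 0.946% and 0.363% of all genes. Their median log2 fold change was -0.068. At an unadjusted p under 0.05 stood 4 as higher and 12 as lower, against 15.3% of all genes in either direction. DESeq2 called 1 higher and 7 lower, against 4.73% of all genes, and limma voom 1 and 5, against 3.54%. The gene that fell was Zbtb7b (ThPOK), the factor that sets the CD4 T cell fate, with 97.1 ± 20.3 CPM in control and 47.8 ± 5.47 CPM in CUMS (SD, n = 3 each; log2 fold change -1.02 ± 0.17 SE, edgeR adjusted p = 0.0188). Zbtb7b is also 1 of the 4 CD4 T cell markers, whose summed level fell with it. Its part from CD4 T cells was not tested.

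The counts of some members hold reads that could belong elsewhere. Of the 251 genes, 113 overlap another gene, 85 of them on the opposite strand, and since no source used here states how strand was handled in counting, reads of such pairs cannot be told apart. A stretch of 100 bases or more was shared with the transcript of another gene in 64 of them, and over 20% of the transcript was shared in 10. Those 10 were Zfp984, Zfp617, Zfp932, Zfp59, Zfp414, Zfp992, Zfp991, Zfp58, Zfp97 and Zfp524, with 73.8% of Zfp991 and 67.5% of Zfp97 the largest shares, and none of the 10 passed the test.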

How the data were processed

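The deposited table holds raw read counts per gene, and the authors' tools, per the submitters' processing notes, included featureCounts 1.5.0-p3 and HISAT2 2.0.5 on the build mm10. The gene length that the authors deposited was used for levels per kilobase. The sources used here state neither annotation release nor strand setting. The 251 genes, the gene lists and the tests were chosen with earlier results of these data known.

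Counts were fitted with edgeR 4.0.16 in R 4.3.3: filterByExpr (14054 genes), TMM factors, dispersion over all 6 libraries (biological coefficient of variation 29.8%), glmQLFit in its legacy form and a two-sided glmQLFTest of CUMS against control, no covariate, with a threshold of 0.05 on Benjamini-Hochberg adjusted p. Standard errors were derived from each fold change and F value. With 3 libraries a side the smallest two-sided p of an exact permutation test is 0.1, and no such test was run. A gene with 0 counts could hold up to 3, or 0.166 to 0.201 CPM, as far as counting error goes. Libraries of a group all differed by more than sampling noise (chi-square per gene 10.03 to 35.8).

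KRAB and SCAN profiles were built with pyhmmer 0.12.3 from 107 and 17 windows of the translated GENCODE M21 proteins around a strict signature and searched at an E value of 1e-05. A finger is C, 2 or 4 residues, C, 12 residues, H, 3 to 5 residues, H. Alternatives were other scalings, filters and tools (DESeq2 1.42.0, limma 3.58.1 voom with sample weights), left-out libraries, the replicate number as a block, marker levels as covariates, GC and length trends removed, and limits of 2 and 10 CPM. Genes named are those past the threshold, the 6 most abundant, the 6 largest fold changes each way, those next to the 5 CPM limit, 3 role lists, chosen silencing genes and the 3 largest clusters; others were named after their values were seen. Figures were drawn with matplotlib 3.10.9.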

Additional observations from a re-analysis of the deposited data

How the results depend on the processing

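The family's median log2 fold change (-0.005) and its summed level kept within the spread between libraries under the other scalings, filters, tools and level limits, the block and each left-out library. The median moved to 0.116 without CUMS replicates 2 and 3 (all genes -0.010) and to -0.098 with the monocyte and neutrophil level as a covariate. The count of genes higher in CUMS, 2 in the main test, was 3 with no filter, the stricter filter, DESeq2, limma voom or the GC trend removed. It was 1 with the replicate block and 0 to 2 as each library was left out. With the monocyte and neutrophil or the hepatocyte level as a covariate it was 0. The count lower was 1 with DESeq2 (Zfp276) and 0 otherwise. With no filter, 1 silencing gene, Sumo2, passed as higher (log2 fold change 0.57), although its groups overlapped, at 8.36 to 86.4 CPM in control and 2.24 to 88.8 CPM in CUMS. The causes were not tested. Over all genes the covariate fits called 0 and 2, and the block 71. The main test called 1.31% of all genes, and the fits with 1 library left out called 0.061% to 1.2%. It was 2.93% with no filter, 2.88% with the stricter filter, 4.73% with DESeq2, 3.54% with limma voom and 2.1% with the GC trend removed. Same-numbered libraries correlated at 0.005, -0.032 and -0.062 in their deviations from the group means, and differently numbered libraries at -0.04 to 0.06. Since each group mean rests on only 3 libraries, these values cannot decide whether the replicate numbers pair the libraries. With the block Zkscan8 had an adjusted p of 0.0446 and Zfp827 of 0.0808 in edgeR. Of 90 genes named, 31 kept their sign under all 19 alternatives and 59, none of them called in the main test, changed sign in at least 1. Standard errors were widest for the family genes of 5 to 10 CPM, with a median of 0.354, against 0.134 at 50 CPM or more. Under 30 counts were found for 2 family genes in CUMS library 2 and for 1 in CUMS library 3. The part of depth was not tested.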
